A study of Homo sapiens with 4 samples.

Results

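The 36 genes described here encode the core machinery of autophagy and its cargo receptors. They were chosen by name and role, by a rule that uses no measured value but was written with earlier results of these data known. Each symbol matched 1 row of the 19389 protein-coding genes in the deposited table. They fall into the LC3 family (3 genes), the GABARAP family (3), cargo receptors (6), the ULK initiation complex (5), the PI3-kinase complex (4), lipid transfer proteins and readers of its product (5), the conjugation enzymes with the ATG4 proteases (9) and the transcription factor TFEB. All 36 reached at least 1 FPKM in at least 2 libraries and were tested among 11318 genes. FPKM, the number of sequenced fragments scaled by transcript length and library size, is a level per length, so levels of different genes can be set side by side. The cells were SW620, an established line derived from a human colorectal cancer. There were 2 libraries of control cells, with no agent named in their labels, and 2 of cells exposed to H2O2 for 2 days at 150 µM by the sample labels, where the series' design text has mM. The series' title calls the treated cells senescent. No label ties the libraries to independent cultures, and the p-values therefore reflect only how far these 4 libraries spread, which may be technical variation. In bulk RNA, fewer cells expressing a gene and less of its RNA per cell cannot be told apart.

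Autophagy encloses cytoplasm in a double membrane, the autophagosome, and delivers it to the lysosome. The ULK kinase complex starts the process, a class III PI3-kinase complex marks the forming membrane with the lipid PI3P, and ATG9A with the ATG2 proteins supplies it with lipid. Small ubiquitin-like proteins of the ATG8 family, the LC3 and GABARAP proteins, are then linked to that membrane, where cargo receptors such as SQSTM1 bind them. TFEB is a transcription factor known to switch on many autophagy and lysosome genes. The measurements below are of mRNA and say nothing of how much autophagy took place, which is set largely by protein modification and turnover.

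The ends of the coding sequences of the ATG8 family show what its members share and how closely MAP1LC3B2 resembles MAP1LC3B. ATG4 proteases cut these proteins after a glycine near the end, and that glycine is then joined to the membrane lipid. Below, the last glycine codon of each coding sequence is in capitals, followed by the remaining codons and the stop codon. The sequences are those of GENCODE release 29 transcripts (GRCh38), 5′ to 3′ on the coding strand.
MAP1LC3A: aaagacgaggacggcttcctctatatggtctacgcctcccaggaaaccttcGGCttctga
MAP1LC3B: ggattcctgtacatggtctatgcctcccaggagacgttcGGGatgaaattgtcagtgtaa
MAP1LC3B2: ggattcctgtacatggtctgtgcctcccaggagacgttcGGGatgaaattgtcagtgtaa
GABARAP: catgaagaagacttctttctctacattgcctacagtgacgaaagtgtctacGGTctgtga
GABARAPL1: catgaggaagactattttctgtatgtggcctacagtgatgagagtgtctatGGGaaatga
GABARAPL2: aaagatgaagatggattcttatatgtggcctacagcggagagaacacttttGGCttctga
The glycine is codon 120 in the 3 LC3 genes and codon 116 in the 3 GABARAP genes. It is followed by 1 codon before the stop in each gene except MAP1LC3B and MAP1LC3B2, where it is followed by 5. Over the coding sequence with its stop codon, MAP1LC3B and MAP1LC3B2 differed at 2 of 378 aligned bases and shared an unbroken run of 307 bases. Reads from most of the coding sequence could come from either gene, and how the authors' processing split them is not given, so the FPKM of each is uncertain. The annotated transcripts are 2688 bases for MAP1LC3B and 660 bases for MAP1LC3B2, and the parts outside the coding sequence were not compared. GABARAP and GABARAPL1, the next most similar pair, were 76.8% identical, with a longest shared run of 14 bases. MAP1LC3A was 74.5% identical to MAP1LC3B.

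Across all 36 genes, levels in H2O2-treated cells lay mostly a little above those in controls. No single gene passed the test over all genes, in which group was the only term. The log2 change of FPKM + 1 was positive in 27 of 36 genes, or 75%, where 45.7% of all genes tested had a positive change. After each library was rescaled to the same total these became 34 of 36, or 94.4%, and 70.8%. Its median was 0.24 over the 36 genes and -0.029 over all genes tested. Both treated libraries lay above both controls in 16 of the 36 genes, or 44.4%, against a background of 19.3% of all genes tested. Both treated libraries lay below both controls in 4 of the 36, or 11.1%, against a background of 24%. With limma and Benjamini-Hochberg adjustment over the 11318 genes, 0 of the 36 were higher at an adjusted p under 0.05, against a background of 0%, and 0 were lower, also against 0%. At an unadjusted p under 0.05, 4 of the 36 (11.1%) were higher, against a background of 6.22%, and 0 were lower, against 4.91%. The 4 were MAP1LC3A, GABARAPL1, OPTN and TAX1BP1. With 1 library left out, the median log2 change of the 36 genes ranged from 0.17 without control 2 to 0.32 without control 1. After rescaling to the same total, 13 of the 36 were higher at an unadjusted limma p under 0.05. The higher genes among all 11318 tested then numbered 1213, against 704 as reported. The rescaling also moved the median change of all genes tested from -0.029 to 0.14 and that of the 36 genes from 0.24 to 0.42.

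**Figure D1:**
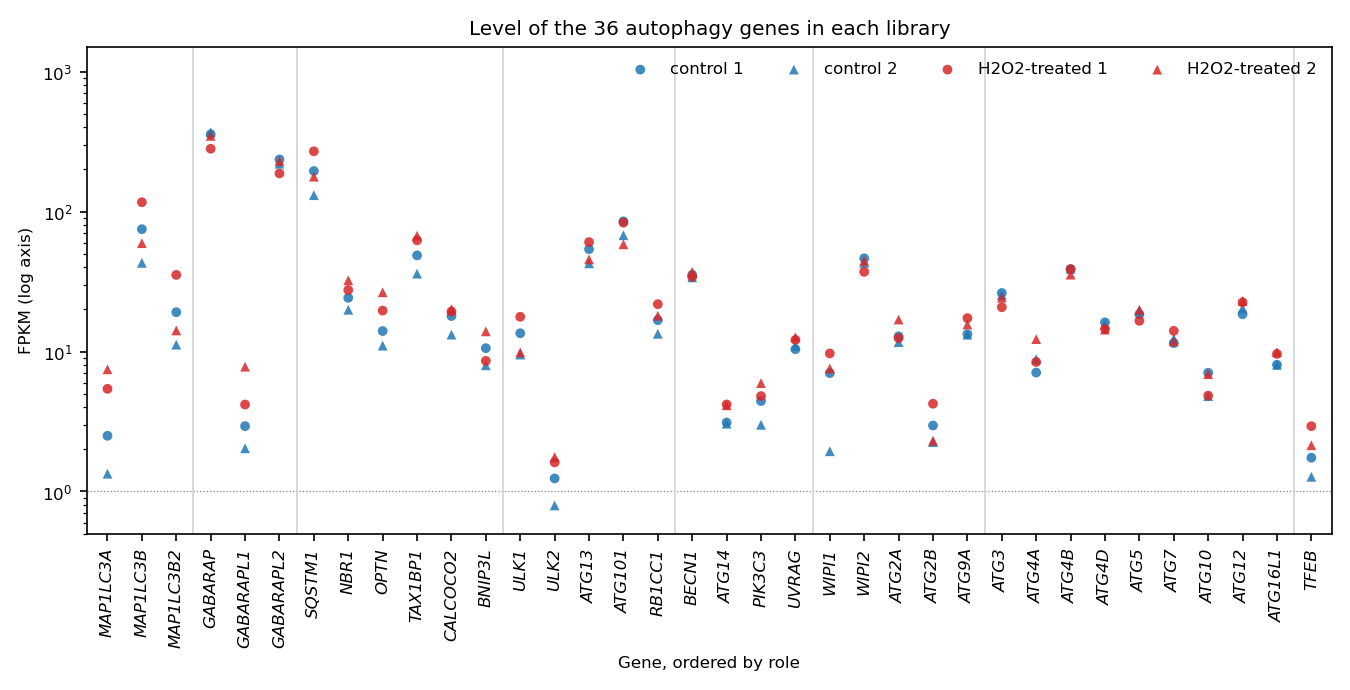
FPKM of each of the 36 genes (log axis) in every library, in blue for controls and red for H2O2-treated cells, with circles for library 1 and triangles for library 2 of each group; vertical lines separate the roles. GABARAP, GABARAPL2 and SQSTM1 stood highest and ULK2 lowest, and for MAP1LC3A and GABARAPL1 both red points lie above both blue points.

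Levels spanned a wide range. GABARAP had the highest mean over the 4 libraries, 339 FPKM, and ULK2 the lowest, 1.35 FPKM. GABARAP, GABARAPL2 and SQSTM1 stood at percentiles 98.8, 98.1 and 97.8 of all rows by mean FPKM. Together the 36 genes made up 0.210% and 0.193% of all FPKM in controls 1 and 2, and 0.263% and 0.234% in treated libraries 1 and 2. Both treated shares were above both control shares. The summed FPKM of the 36 genes overlapped between groups, at 1462 and 1277 in controls and 1511 and 1444 in treated libraries 1 and 2. The total over all rows was lower in both treated libraries, at 574782 and 617668, than in controls 1 and 2, at 695837 and 660860.

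Within the ATG8 family, the 2 least abundant members lay higher in treated cells, while the 2 most abundant members lay slightly lower. MAP1LC3A, one of the LC3 proteins, lies on chromosome 20, 34546854 to 34560345, plus strand (hg38). It measured 2.4998 and 1.34 FPKM in controls 1 and 2, and 5.41 and 7.46 FPKM in treated libraries 1 and 2. Both treated libraries stood well above both controls. The means were 1.92 ± 0.821 and 6.44 ± 1.45 FPKM (SD, n = 2), a 3.35-fold difference. Its log2 change was 1.36 ± 0.27 (SE; limma adjusted p = 0.241), the largest among the 36 genes as reported. The change ranged from 0.72 to 1.74 over 13 alternatives, and with 1 library left out its limma adjusted p ranged from 0.0661 to 0.821.

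GABARAPL1, a member of the GABARAP branch, lies on chromosome 12, 10212458 to 10223130, plus strand. It measured 2.93 and 2.03 FPKM in controls 1 and 2, and 4.18 and 7.79 FPKM in treated libraries 1 and 2. The groups did not overlap, with treated 2 standing well above treated 1. The means were 2.48 ± 0.634 and 5.99 ± 2.55 FPKM (SD, n = 2), a 2.41-fold difference. The log2 change was 0.97 ± 0.30 (SE; limma adjusted p = 0.352). It was 0.58 without treated 2 and 1.35 without treated 1, and its unadjusted p was above 0.05 without control 2.

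The abundant members of the branch showed no such difference. GABARAP measured 357 and 369 FPKM in controls 1 and 2, and 281 and 347 FPKM in treated libraries 1 and 2. Treated 1 was the lowest, and treated 2 lay just under the controls. Its log2 change of -0.21 ± 0.19 (SE; limma adjusted p = 0.731) became 0.051 after quantile normalization and 0.042 after cyclic loess. GABARAPL2 measured 236 and 219.8 FPKM in controls 1 and 2, and 187 and 230.1 FPKM in treated libraries 1 and 2. Treated 2 lay between the controls, so the groups overlapped. Its log2 change was -0.13, and it turned positive under rescaling to the same total (0.053), quantile normalization (0.090) and cyclic loess (0.11), and without treated 1 (0.015).

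MAP1LC3B, the LC3 gene most used as a marker of autophagosomes, lies on chromosome 16, 87383995 to 87404779, plus strand. It measured 74.9 and 43.0 FPKM in controls 1 and 2, and 117 and 59.5 FPKM in treated libraries 1 and 2. Treated 1 was the highest, but control 1 lay above treated 2, so the groups overlapped. MAP1LC3B2 showed the same order, with 19.1 and 11.2 FPKM in controls 1 and 2, and 35.3 and 14.1 FPKM in treated libraries 1 and 2. The sum of the pair is no safer, since the same reads give different FPKM over transcripts of unequal length. It was 94.0 and 54.2 FPKM in controls and 152 and 73.6 FPKM in treated libraries 1 and 2. MAP1LC3B2 was given 0.255, 0.260, 0.302 and 0.238 of the MAP1LC3B level in control 1, control 2, treated 1 and treated 2. The log2 changes were 0.55 ± 0.38 for MAP1LC3B and 0.58 ± 0.44 for MAP1LC3B2 (SE; limma adjusted p = 0.658 and 0.682). That of MAP1LC3B was 0.065 without treated 1, 0.15 without control 2, 0.94 without control 1 and 1.03 without treated 2. That of MAP1LC3B2 was -0.047 without treated 1 and 1.21 without treated 2.

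The makeup of the family therefore differed between libraries, without a clean split by group. GABARAP and GABARAPL2 together held most of the family's FPKM in each library, GABARAP alone 51.6% and 57.1% in controls and 44.6% and 52.1% in treated libraries 1 and 2. The LC3 genes held 13.9% and 8.60% in controls 1 and 2, and 25.0% and 12.2% in treated libraries 1 and 2. Summed LC3 over summed GABARAP FPKM, a ratio within a library that does not move with its total, was 0.162 and 0.0941 in controls and 0.333 and 0.139 in treated libraries 1 and 2. Treated 1 was the highest, and treated 2 lay between the 2 controls. The ratio and the shares carry the same doubt about the split between MAP1LC3B and MAP1LC3B2. The means were 0.128 ± 0.0481 and 0.236 ± 0.137 (SD, n = 2), so the difference was within the spread of the treated pair. MAP1LC3A and GABARAPL1 rank last in the family by level, and their shares in treated libraries lay above those in controls. MAP1LC3A held 0.361% and 0.207% of the family in controls, and 0.859% and 1.12% in treated libraries 1 and 2. GABARAPL1 held 0.423% and 0.315% in controls, and 0.663% and 1.17% in treated libraries 1 and 2.

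**Figure D2:**
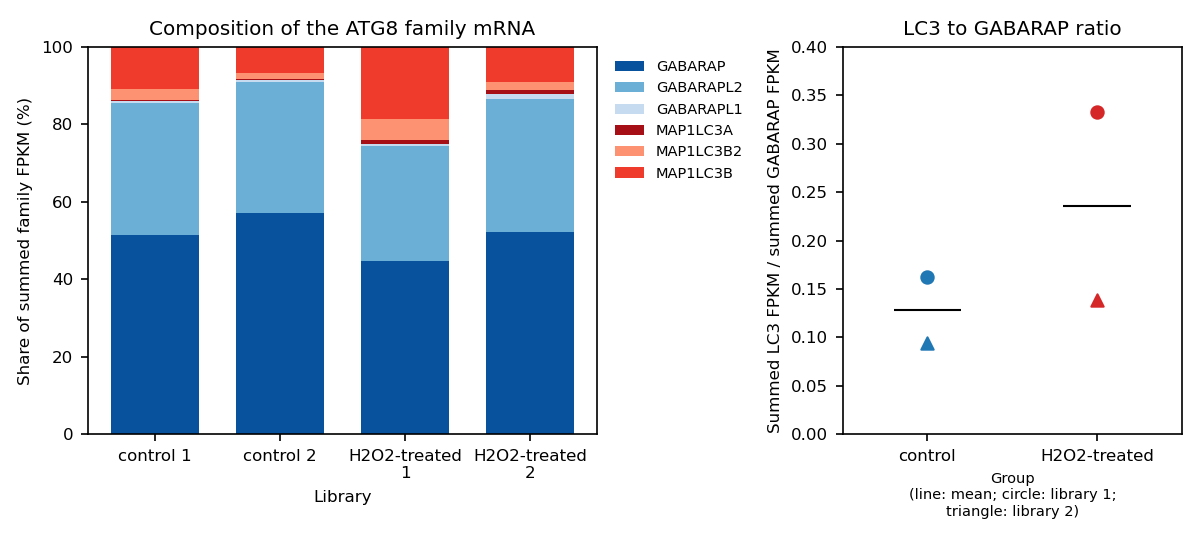
Left, the share (%) of summed ATG8 family FPKM held by each of its 6 genes in every library; right, summed LC3 over summed GABARAP FPKM per library, with the group mean as a line, circles for library 1 and triangles for library 2. The ratio was highest in treated 1, at 0.333, and treated 2, at 0.139, lay between the 2 controls.

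All 6 cargo receptors had a positive change, against 45.7% of all genes tested, with a median log2 change of 0.44. In 4 of the 6, both treated libraries lay above both controls, against a background of 19.3% of all genes tested. The median was 0.23 without control 2 and 0.65 without control 1, and 5 of 6 were positive without treated 2. OPTN, optineurin, a receptor that binds ubiquitin on damaged mitochondria and bacteria, lies on chromosome 10, 13099449 to 13138308, plus strand. It measured 14.004 and 11.011 FPKM in controls 1 and 2, and 19.6 and 26.5 FPKM in treated libraries 1 and 2. The treated libraries stood apart above the controls. The means were 12.5 ± 2.12 and 23.1 ± 4.86 FPKM (SD, n = 2), a 1.84-fold difference. The log2 change was 0.83 ± 0.21 (SE; limma adjusted p = 0.309). It ranged from 0.62 without treated 2 to 1.03 without treated 1, and its unadjusted p was above 0.05 without control 2.

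TAX1BP1, a related ubiquitin-binding receptor, lies on chromosome 7, 27739331 to 27844564, plus strand. It measured 48.6 and 36.009 FPKM in controls 1 and 2, and 62.3 and 67.2 FPKM in treated libraries 1 and 2. The treated libraries were close to each other and above both controls. The means were 42.3 ± 8.94 and 64.7 ± 3.47 FPKM (SD, n = 2), a 1.53-fold difference. The log2 change was 0.62 ± 0.20 (SE; limma adjusted p = 0.369). It was 0.40 without control 2, where the unadjusted p was above 0.05, and 0.83 without control 1.

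SQSTM1, the ubiquitin-binding receptor that is itself degraded by autophagy, was the most abundant receptor. It measured 195 and 131 FPKM in controls 1 and 2, and 269.7 and 178 FPKM in treated libraries 1 and 2. Control 1 lay above treated 2, so the groups overlapped, as for MAP1LC3B. Its log2 change was 0.45 ± 0.28 (SE; limma adjusted p = 0.618). It was 0.15 without treated 1, 0.17 without control 2, 0.74 without control 1 and 0.75 without treated 2. SQSTM1 held 62.8% and 59.8% of the receptors' summed FPKM in controls and 66.3% and 52.6% in treated libraries 1 and 2.

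NBR1, a receptor built like SQSTM1, measured 24.2 and 19.9 FPKM in controls 1 and 2, and 27.5 and 32.3 FPKM in treated libraries 1 and 2. Its treated libraries lay above both controls, with a log2 change of 0.43 ± 0.18 (SE; limma adjusted p = 0.463). CALCOCO2, also called NDP52, a receptor for bacteria and mitochondria, measured 17.9 and 13.2 FPKM in controls, and 19.3 and 20.1 FPKM in treated libraries 1 and 2. Its treated values were nearly equal and only just above control 1. BNIP3L, a receptor on the outer mitochondrial membrane, measured 10.6 and 7.97 FPKM in controls, and 8.57 and 13.9 FPKM in treated libraries 1 and 2. Its groups overlapped, and its log2 change of 0.23 was -0.089 without treated 2.

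**Figure D3:**
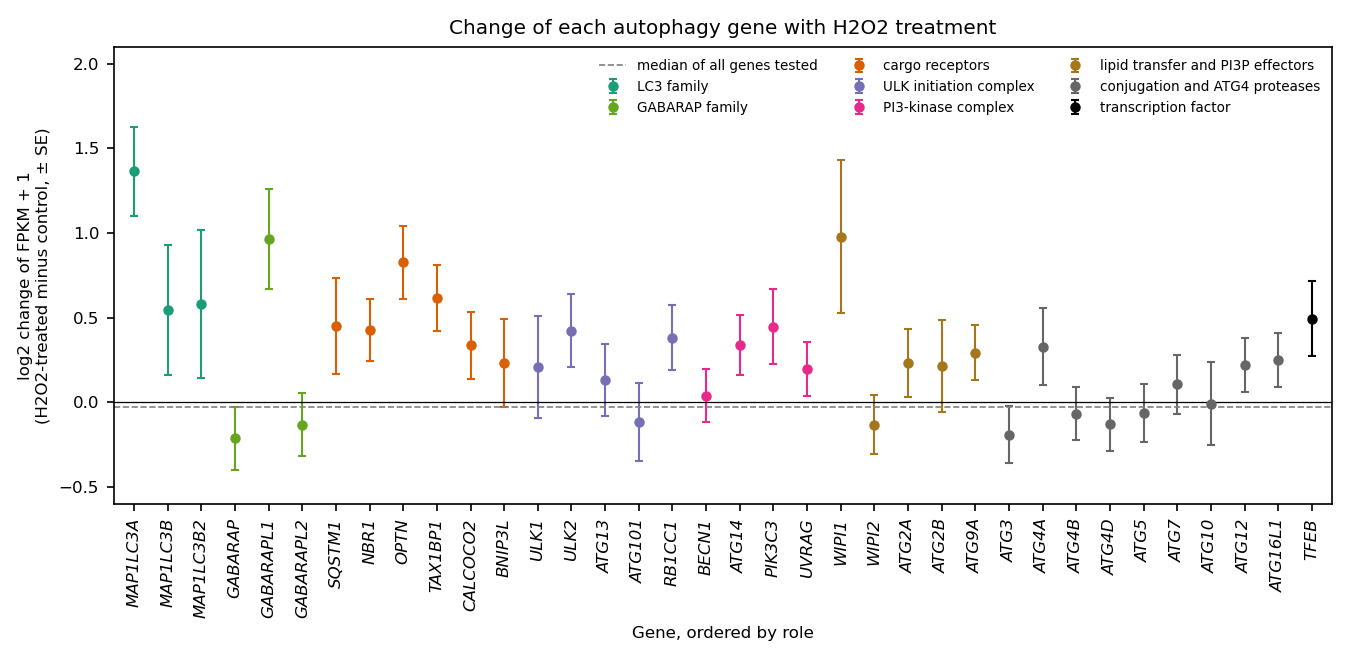
Log2 change of FPKM + 1 (H2O2-treated minus control) with its SE from limma for each of the 36 genes, coloured by role; the dashed line is the median of all genes tested, -0.029. MAP1LC3A, GABARAPL1, OPTN, TAX1BP1 and WIPI1 lie highest, while the conjugation genes lie around 0.

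The ULK initiation complex had a median log2 change of 0.21, with 4 of 5 genes positive, against 45.7% of all genes tested. After rescaling to the same total all 5 were positive, with a median of 0.39. Of all genes tested 70.8% were then positive, with a median of 0.14. All 5 were also positive after quantile or cyclic loess normalization, where 46.1% and 49.7% of all genes tested were. They were positive again without control 1 (median 0.44) and without treated 2 (0.38). Only 2 of 5 were positive without treated 1 (median -0.072) and without control 2 (-0.025). ULK1, the kinase that starts autophagy, measured 13.5 and 9.51 FPKM in controls 1 and 2, and 17.7 and 9.86 FPKM in treated libraries 1 and 2. Treated 2 was close to control 2 and below control 1. Its paralog ULK2 was the lowest of the 36 genes, at 1.24 and 0.794 FPKM in controls, and 1.61 and 1.76 FPKM in treated libraries 1 and 2. Its treated libraries lay above both controls, with a log2 change of 0.42 ± 0.22 (SE; limma adjusted p = 0.543). RB1CC1, the large scaffold also called FIP200, measured 16.8 and 13.4 FPKM in controls, and 21.8 and 18.0 FPKM in treated libraries 1 and 2, also without overlap. The regulatory subunit ATG13 measured 53.9 and 42.7 FPKM in controls, and 60.5 and 45.6 FPKM in treated libraries 1 and 2. Its partner ATG101, which stabilizes ATG13, measured 85.1 and 67.7 FPKM in controls, and 83.4 and 58.4 FPKM in treated libraries 1 and 2. In ATG13 and ATG101, library 1 was above library 2 in each group by more than the group means differed.

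The PI3-kinase complex had a positive change in all 4 genes, against 45.7% of all genes tested. The change was small in each, with a median log2 change of 0.27. ATG14, the subunit that directs the kinase to autophagy, measured 3.11 and 3.05 FPKM in controls 1 and 2, and 4.18 and 4.13 FPKM in treated libraries 1 and 2. Replicates were close in both groups and the treated libraries stood above the controls, with a log2 change of 0.34 ± 0.18 (SE; limma adjusted p = 0.554). PIK3C3, the catalytic subunit, measured 4.43 and 2.995 FPKM in controls, and 4.80 and 5.94 FPKM in treated libraries 1 and 2. UVRAG, which replaces ATG14 in a second form of the complex, measured 10.4 and 10.975 FPKM in controls, and 12.1 and 12.7 FPKM in treated libraries 1 and 2. Neither gene's groups overlapped. Both treated libraries thus lay above both controls in 3 of the 4 genes, against 19.3% of all genes tested. BECN1, the scaffold beclin, was level across the libraries, at 35.4 and 33.9 FPKM in controls, and 34.2 and 37.1 FPKM in treated libraries 1 and 2. Its log2 change of 0.039 was -0.019 without treated 2, where 3 of the 4 genes were positive.

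Among the lipid transfer proteins and the readers of PI3P, WIPI1 had the largest change and the largest SE. WIPI1, which binds PI3P on the forming membrane, lies on chromosome 17, 68420948 to 68457513, minus strand. It measured 7.01 and 1.94 FPKM in controls 1 and 2, and 9.69 and 7.56 FPKM in treated libraries 1 and 2. Both treated libraries lay above both controls, but control 1 was close to treated 2. The log2 change was 0.98 ± 0.45 (SE; limma adjusted p = 0.496), and it was 0.26 without control 2 and 1.70 without control 1. Its paralog WIPI2, far more abundant, measured 46.4 and 43.0 FPKM in controls, and 37.1 and 44.5 FPKM in treated libraries 1 and 2, with overlapping groups. ATG9A, a lipid scramblase carried on vesicles, measured 13.3 and 13.2 FPKM in controls, and 17.3 and 15.6 FPKM in treated libraries 1 and 2, without overlap. The lipid transfer proteins ATG2A and ATG2B overlapped between groups. ATG2A measured 12.8 and 11.7 FPKM in controls, and 12.5 and 16.9 FPKM in treated libraries 1 and 2. ATG2B measured 2.96 and 2.25 FPKM in controls, and 4.24 and 2.30 FPKM in treated libraries 1 and 2, and its log2 change of 0.21 was -0.12 without treated 1.

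The conjugation enzymes and ATG4 proteases, which process the ATG8 proteins and attach them to lipid, lay around no change. Their median log2 change was -0.0096, with a range of -0.19 to 0.33. The change was positive in 4 of 9 genes, against 45.7% of all genes tested. An unadjusted limma p under 0.05 was reached by 0 of the 9. After rescaling to the same total the median was 0.16, against 0.14 for all genes tested. ATG12 and ATG16L1, parts of the complex that places ATG8 proteins on the membrane, were the 2 whose treated libraries lay above both controls. ATG16L1 measured 8.04 and 8.03 FPKM in controls 1 and 2, and 9.62 and 9.88 FPKM in treated libraries 1 and 2. ATG12 measured 18.5 and 20.3 FPKM in controls, and 22.5 and 23.0 FPKM in treated libraries 1 and 2. For ATG3, ATG4B and ATG4D both treated libraries lay below both controls. The backgrounds over all genes tested were 19.3% above both controls and 24% below. ATG3, the enzyme that transfers ATG8 proteins to lipid, measured 26.2 and 25.3 FPKM in controls, and 20.7 and 24.3 FPKM in treated libraries 1 and 2. The protease gene ATG4D measured 16.2 and 15.6 FPKM in controls, and 14.5 and 14.3 FPKM in treated libraries 1 and 2. ATG4B, the protease with the broadest action, measured 38.80 and 39.0 FPKM in controls, and 38.77 and 35.4 FPKM in treated libraries 1 and 2, so treated 1 was all but level with control 1. The log2 changes of ATG4B (-0.068) and ATG4D (-0.13) turned positive after rescaling to the same total, at 0.11 and 0.045. The other 4 overlapped between groups. ATG4A went from a control mean of 7.94 ± 1.23 to 10.3 ± 2.72 FPKM, and ATG5 from 19.0 ± 0.777 to 18.2 ± 2.34 FPKM (SD, n = 2). ATG7, the activating enzyme, went from 11.9 ± 0.609 to 12.9 ± 1.57 FPKM, and ATG10 from 5.93 ± 1.59 to 5.87 ± 1.45 FPKM.

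TFEB itself was low, and its treated libraries lay above both controls. It measured 1.74 and 1.27 FPKM in controls 1 and 2, and 2.93 and 2.14 FPKM in treated libraries 1 and 2. The log2 change was 0.49 ± 0.22 (SE; limma adjusted p = 0.482), and it was 0.33 without treated 1 and 0.65 without treated 2. TFEB binds an E-box with the core CACGTG, and the motif of many of its targets extends this to TCACGTGA. Promoter windows of RefSeq (GRCh38.p14), from 250 bases before to 50 after each annotated start, were matched for 31 of the 36 genes and searched on both strands. MAP1LC3A, UVRAG, ATG4D, BNIP3L and RB1CC1 had no window and were not searched. CACGTG was found in 2 of the 31 (6.45%), ATG3 and ATG14, against 8.77% of 27305 genes with a window. TCACGTGA, which contains CACGTG, was found in ATG3 alone (3.23%, against 1.18%). The antioxidant response element core TGACNNNGC, bound by NRF2, was found in 3 (9.68%, against 16.1%), ATG101, CALCOCO2 and MAP1LC3B. The AP-1 site TGACTCA and the ATF4 element TTGCATCA were found in 0 of the 31, against 6.05% and 1.08% of genes. The GC box GGGCGG was found in 24 of the 31 (77.4%, against 48.3%), among them GABARAPL1, OPTN, TAX1BP1 and TFEB. It was also found in GABARAP, ATG3 and ATG4B, whose treated libraries lay below both controls. The genes with a window were not limited to those tested here, so these shares compare unlike sets of genes. A match says only that these letters occur in the window. The 30 bases around 4 of these matches before the start site follow, 5′ to 3′ on the gene's strand with the motif in capitals, to show a GC box pair, an antioxidant element core and the E-box cores.
GABARAPL1 (chr12:10212815-10212844, plus strand): ggcgcatgggGGGCGGGGCGGggctcgcgg
MAP1LC3B (chr16:87392279-87392308, plus strand): cgcgagtcaccTGACCAGGCtgcgggctga
ATG3 (chr3:112561963-112561992, minus strand): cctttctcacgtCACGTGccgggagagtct
ATG14 (chr14:55411834-55411863, minus strand): aaaacaaaatccCACGTGactggctctcct
Of the E-box genes, ATG14 had a log2 change of 0.34 and ATG3 of -0.19 (limma adjusted p = 0.554 and 0.727). A link between the E-box and the change was not tested. In ATG3 the longer motif lies after the start site, outside the bases shown.

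Ordering the 4 libraries by level separated the genes into patterns that the group means do not show. In 9 of the 36 genes, or 25%, the order was treated 2, treated 1, control 1, control 2, against 5.19% of all genes tested. These were MAP1LC3A, GABARAPL1, ULK2, PIK3C3, ATG16L1 and the receptors NBR1, OPTN, TAX1BP1 and CALCOCO2. In 6 genes, or 16.7%, the order was treated 1, control 1, treated 2, control 2, against 5.93% of all genes tested. These were MAP1LC3B, MAP1LC3B2, SQSTM1, ULK1, ATG13 and ATG2B. In 5 more, RB1CC1, ATG14, WIPI1, ATG9A and TFEB, or 13.9%, the order was treated 1, treated 2, control 1, control 2, against 6.26%. MAP1LC3B and SQSTM1, the usual pair of autophagy markers, thus had the same library order, one found in 671 of all genes tested. SQSTM1 stood at 2.60, 3.04, 2.31 and 2.99 times the MAP1LC3B level in control 1, control 2, treated 1 and treated 2. Library 1 stood above library 2 in both groups in 13 of the 36 genes (36.1%, against 33% of all genes tested), and library 2 above library 1 in 5 (13.9%, against 31.7%). These orders were seen in the same values and carry no test, and the values of MAP1LC3B and MAP1LC3B2 may depend on each other through the split of their reads.

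**Figure D4:**
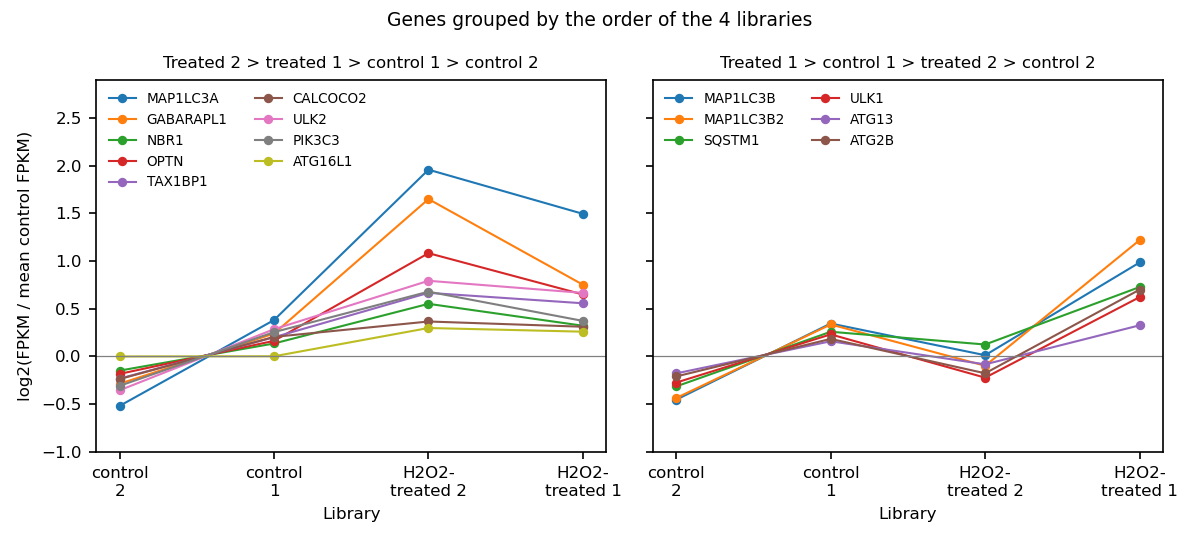
Log2 of FPKM over the mean control FPKM in each library, for the 9 genes with the order treated 2, treated 1, control 1, control 2 (left) and the 6 with the order treated 1, control 1, treated 2, control 2 (right). On the left both treated libraries stand above both controls, and on the right control 1 stands above treated 2 in each gene.

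Other genes of the pathway lay to both sides of no change. Of 83 further symbols in 5 lists, 82 were in the table, and limma called 0 of the tested ones at an adjusted p under 0.05. The background at an unadjusted p under 0.05 was 6.22% higher and 4.91% lower, and for groups that do not overlap 19.3% higher and 24% lower. Among 10 other core genes, 2 lay above both controls in both treated libraries and 0 below, 0 reached an unadjusted p under 0.05 and the median log2 change was 0.13. The 4 with the smallest p were ATG16L2 (0.22), WDR45 (0.27), NRBF2 (0.14) and VMP1 (0.20), each log2 change in brackets. Of 16 other selective receptors, 1 was higher at an unadjusted p under 0.05 and 0 lower, with a median log2 change of -0.018. That gene was CALCOCO1, a receptor for the endoplasmic reticulum and Golgi, at 12.7 and 14.2 FPKM in controls and 17.9 and 34.1 FPKM in treated libraries 1 and 2. CCPG1, another receptor for the endoplasmic reticulum, had a log2 change of 0.88, the mitophagy kinase PINK1 0.39, and the mitophagy receptor FUNDC1 -0.37. Of these 16, 8 had a positive change, against 45.7% of all genes tested. In both treated libraries 3 of the 16 lay above both controls and 3 below.

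Of 14 genes for fusion with the lysosome, 1 was higher at an unadjusted p under 0.05, the adaptor PLEKHM1, at 6.34 and 5.23 FPKM in controls and 7.76 and 8.88 FPKM in treated libraries 1 and 2. VPS33A (-0.21), VPS16 (-0.17) and EPG5 (0.20) followed by p, with log2 changes in brackets, and the median was 0.019. Both treated libraries lay above both controls in 6 of the 14 and below in 2, against 19.3% and 24% of all genes tested. The backgrounds at an unadjusted limma p under 0.05 were 6.22% higher and 4.91% lower. Among 27 genes of the mTORC1 and AMPK kinases and their regulators, which control autophagy from outside, an unadjusted p under 0.05 was reached by 1 gene that lay higher and 1 that lay lower. RRAGD, a small GTPase that recruits mTORC1 to lysosomes, measured 2.87 and 3.22 FPKM in controls and 5.74 and 5.64 FPKM in treated libraries 1 and 2 (log2 change 0.73; limma adjusted p = 0.305). LAMTOR2, part of the scaffold that holds such GTPases, measured 108 and 116 FPKM in controls and 60.9 and 83.0 FPKM in treated libraries 1 and 2 (log2 change -0.65; limma adjusted p = 0.357). Its partner LAMTOR4 had a log2 change of -0.60 and RRAGB -0.42, and the median of the 27 was -0.060. Both treated libraries lay below both controls in 10 of the 27 and above in 4, against 24% and 19.3% of all genes tested. Of 8 transcriptional regulators tested, TP53INP2, which binds ATG8 proteins in the nucleus and at autophagosomes, was higher at an unadjusted p under 0.05. It measured 1.87 and 2.11 FPKM in controls and 3.65 and 5.84 FPKM in treated libraries 1 and 2 (log2 change 0.91; limma adjusted p = 0.309). The p53 target DRAM1 had a log2 change of 0.50, the TFEB relative TFE3 0.29 and FOXO1 0.13. Both treated libraries lay above both controls in 3 of the 8 and below in 0, against 19.3% and 24% of all genes tested. The median of the 8 was 0.064.

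Markers set the context of these values. Summed FPKM per library ran from 574782 to 695837, and read depth is unknown because the table holds no counts. The epithelial markers EPCAM, KRT8, KRT18 and VIL1 were between 67.7 and 3616 FPKM in each library. Summed epithelial markers were 5913 to 6848 FPKM in controls and 5232 to 5341 FPKM in treated cells, and 2 of the 6 tested of 8 had an unadjusted p under 0.05, VIL1 (log2 change -0.45) and CDH1 (0.64). EPCAM and KRT8 also lay below both controls in both treated libraries (-0.36 and -0.31), and CDX2 overlapped between groups (0.47). CDX1 was listed at 0 and KRT20 was at or below 0.742 FPKM. Summed leukocyte markers were 5.16 to 6.68 FPKM in controls and 12.5 to 36.7 FPKM in treated cells, and 1 of the 2 tested of 6 had an unadjusted p under 0.05. That gene was CD68, a lysosomal membrane protein, whose libraries stood in the same order as MAP1LC3A. The other tested marker, LYZ, overlapped between groups, at 2.95 and 4.43 FPKM in controls and 4.41 and 18.4 FPKM in treated libraries 1 and 2. PTPRC, which defines leukocytes, did not exceed 0.00822 FPKM. Summed fibroblast markers were 5.16 to 10.1 FPKM in controls and 5.04 to 11.04 FPKM in treated cells, and summed endothelial markers did not exceed 0.459 FPKM in any library. Exons of 13 of the 36 genes overlapped another coding gene on the opposite strand, among them SQSTM1, OPTN, TAX1BP1 and WIPI1, so reads there are assigned with certainty only if strand was used. Transcript length also moved with the change: Spearman's rho of log2 change with length was 0.23 across all genes tested and 0.12 across the 36, given as a description across genes. The 18 members with transcripts shorter than 3063 bases, the median of all genes tested, had a median log2 change of 0.18 and the 18 longer ones 0.24, against -0.092 and 0.022 for all genes tested of those lengths. The part of strand and length in the results was not tested.

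**Figure D5:**
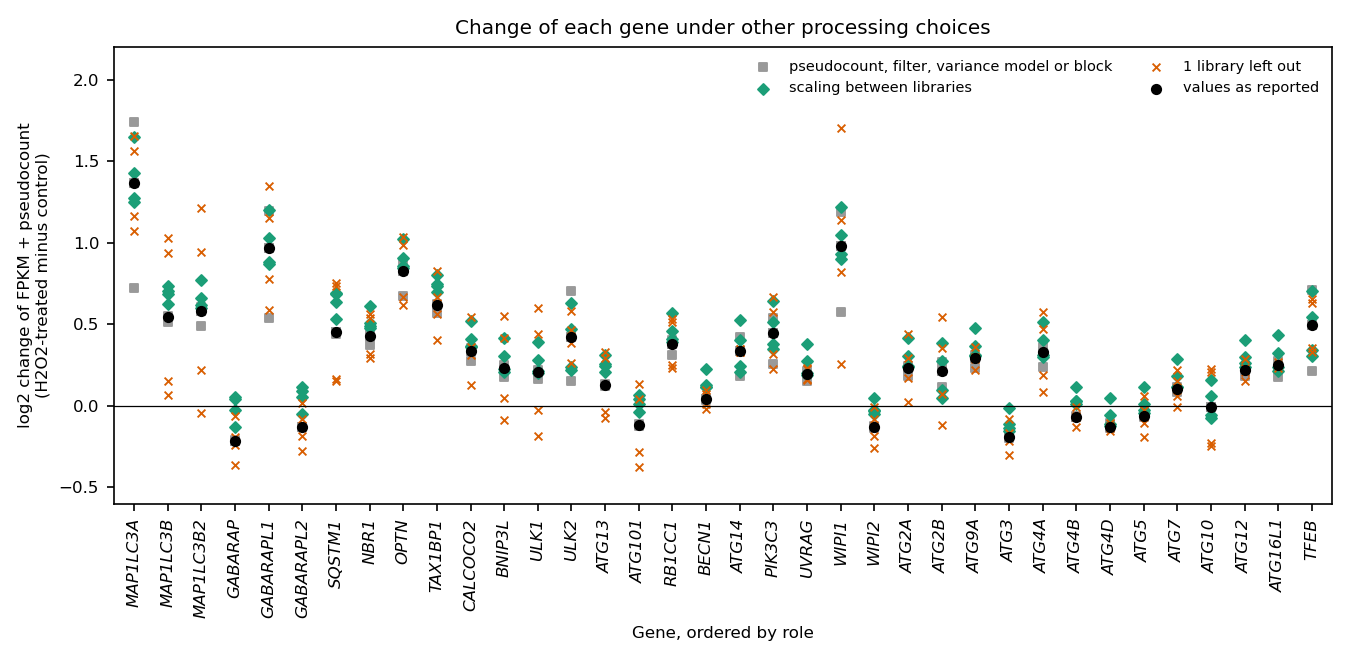
Log2 change of each of the 36 genes (H2O2-treated minus control) as reported (black), under other scalings (green), with 1 library left out (orange crosses) and under other pseudocounts, filters, variance models or the replicate block (grey). MAP1LC3A, GABARAPL1, OPTN, TAX1BP1 and WIPI1 stayed above 0 in each setting, WIPI1 over the widest range, 0.26 to 1.70. They were among the 21 genes that kept their direction in each setting that gave a value.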

How the data were processed

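The 4 libraries, 2 control and 2 H2O2-treated, were made with a kit that keeps strand, per the labels' protocols. STAR 2.5, Cufflinks 2.2.1 and hg38 are named in the submitters' processing notes, without their roles. Annotation release and strand setting: not given in the sources used here. Values deposited by the authors are FPKM per gene, estimated and without counts, so no count model was used. A gene entered the test when 2 or more libraries reached 1 FPKM; values were transformed as log2(FPKM + 1), which understates changes of low genes, and compared with limma 3.58.1 in R 4.3.3 (group as the only term, variances shrunk to a trend, two-sided, 2 residual and 6.28 total degrees of freedom, Benjamini-Hochberg over all 11318 genes, threshold 0.05). The model was tested on simulated data with independent libraries and changes larger than those of the 36 genes. Smaller changes and linked libraries were not simulated. The alternatives were pseudocounts of 0.1 and 5, no filter, a mean FPKM minimum of 5, rescaling to one total, upper-quartile, quantile and cyclic loess normalization, a replicate block, no variance trend, and leaving out each library; a group left with 1 library was then assumed to vary like the other group. An exact permutation test of 2 against 2 cannot go below p = 0.333 and was not used. Positions and coding sequences come from GENCODE release 29, and 36 of 36 deposited loci overlapped the matched gene; coding sequences were aligned with Biopython 1.88. The members, gene lists and tests were chosen with earlier results of these data known. All 36 members are named; full statistics go to those with an unadjusted p under 0.05, or with groups that do not overlap and a log2 change of at least 0.5 in size, and in each further list the 4 genes with the smallest p are named.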

Additional observations from a re-analysis of the deposited data

How the results depend on the processing

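With 2 libraries a group and no counts, small changes could not be told from the spread, and depth limits are unknown. Of 497 recomputed changes of the 36 genes, 464 kept their direction, and 21 genes kept it in each of the 14 alternatives that gave a value.

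Genes called higher and lower over all genes (0 and 0 as reported) numbered 32 and 0 after rescaling to the same total and 5 and 0 with a mean FPKM minimum of 5. With 1 library left out they ranged from 8 to 90 and from 0 to 13. At an unadjusted p under 0.05, 704 were higher and 556 lower as reported. Higher genes numbered 1169 without a filter, 339 with that minimum, 1213 after rescaling, and 321 to 971 with 1 library left out. Lower genes numbered 131 after rescaling, 293 after upper-quartile scaling, and 95 to 1292 with 1 library left out. Among the 36 genes, the 4 higher ones became 2 with that minimum, where MAP1LC3A and GABARAPL1 were not tested, 13 after rescaling, 7 after upper-quartile scaling, and 1 to 11 with 1 library left out.

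Deviations from the group means correlated between libraries of the same number (r = 0.45, over genes), but with 2 pairs and no such label they share only a number. With the number as a replicate block, limma called 397 genes higher and 190 lower (1108 and 1109 at an unadjusted p under 0.05). Of the 36 genes it called 4 higher, MAP1LC3A (adjusted p = 0.00756), OPTN (0.0302), WIPI1 (0.0377) and GABARAPL1 (0.0431), and 11 were higher at an unadjusted p under 0.05.

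After rescaling to the same total, GABARAPL2 (0.053), ATG101 (0.064), WIPI2 (0.050), ATG4B (0.11), ATG4D (0.045), ATG5 (0.11) and ATG10 (0.16) became positive. Upper-quartile scaling turned ATG4B (0.011), ATG5 (0.013) and ATG10 (0.060). Quantile normalization turned GABARAP (0.051), GABARAPL2 (0.090), ATG101 (0.011) and ATG4B (0.028), and cyclic loess turned them too (0.042, 0.11, 0.044 and 0.030). With 1 library left out, 11 genes turned. Their changes ranged from -0.047 to 1.21 for MAP1LC3B2, -0.28 to 0.015 for GABARAPL2, -0.089 to 0.55 for BNIP3L, -0.19 to 0.60 for ULK1, -0.072 to 0.33 for ATG13, -0.37 to 0.13 for ATG101 and -0.019 to 0.096 for BECN1. They ranged from -0.12 to 0.54 for ATG2B, -0.19 to 0.060 for ATG5, -0.010 to 0.22 for ATG7 and -0.25 to 0.23 for ATG10. The cause was not tested.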
